A study of Homo sapiens with 13 samples.

Results

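The tryptophan-kynurenine route to NAD+ was followed through its 9 genes, IDO1, TDO2, AFMID, KMO, KYNU, HAAO, ACMSD, QPRT and NADSYN1, in FK866-sensitive and FK866-resistant leukemia cells. Every array probe annotated to one of these symbols was taken, which gave 16 probes on 25 spots among 34127 non-control probes. CCRF-CEM cells derive from a human acute lymphoblastic leukemia of T cells, and RNA from parental cells (CEM PA) and from a resistant derivative (CEM RES) was hybridized to 13 one-colour Agilent arrays. FK866 inhibits NAMPT, the enzyme that recycles nicotinamide into NAD+. There were 3 arrays of mock-treated CEM PA, 2 of CEM PA given 5 nM FK866 for 48 h, 4 of mock-treated CEM RES and 4 of CEM RES given the same dose for the same time, mock treatment being DMSO. CEM RES had been selected by stepwise increases of FK866, are labelled as resistant to 100 nM and were passaged under that concentration, so that mock-treated CEM RES were not drug-naive cells. They form 1 derivative of 1 line, called a subline in the methods and subclones in a legend of the study. The labels number the samples as biological replicates without describing separate cultures, and the p-values therefore measure the spread between these arrays.

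Cells make NAD+ from tryptophan in a chain of steps that is most complete in liver and kidney. IDO1 or TDO2 opens the indole ring to N-formylkynurenine, AFMID removes the formyl group to give kynurenine, and KMO, KYNU and HAAO carry it on to aminocarboxymuconate semialdehyde. ACMSD diverts that intermediate away from NAD+, whereas its spontaneous cyclization gives quinolinic acid, which QPRT turns into nicotinic acid mononucleotide. NADSYN1 amidates the nicotinic acid dinucleotide to NAD+ and serves the nicotinic acid route as well. IDO1 is known as an interferon-inducible enzyme of immune cells and tumours, and TDO2 as the hepatic enzyme.

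One probe is printed for each of 6 enzymes, to show what stretch of transcript its signal, or lack of it, refers to. For QPRT and NADSYN1 it is the only probe on the array, while KMO, KYNU, AFMID and HAAO have others that are described with their values. All are 60 bases long, written 5′ to 3′ in the sense of the transcript, from the sequence column of the deposited files, with no part marked in capitals because the whole oligonucleotide binds the labelled RNA.
AFMID A_24_P33156: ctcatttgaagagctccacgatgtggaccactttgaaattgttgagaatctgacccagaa
KMO A_24_P77082: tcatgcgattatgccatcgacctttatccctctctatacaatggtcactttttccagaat
KYNU A_24_P11506: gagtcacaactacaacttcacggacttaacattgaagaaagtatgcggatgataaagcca
HAAO A_23_P28697: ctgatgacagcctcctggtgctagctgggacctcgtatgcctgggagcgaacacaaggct
QPRT A_23_P34233: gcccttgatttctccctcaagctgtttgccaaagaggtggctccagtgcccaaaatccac
NADSYN1 A_23_P35848: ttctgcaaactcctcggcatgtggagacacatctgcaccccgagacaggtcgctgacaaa
By the hg19 positions in the files, the AFMID probe lies at chr17:76202053-76202112 on the plus strand (NM_001010982), the KMO probe within chr1:241753373-241753522 on the plus strand (NM_003679) and the KYNU probe at chr2:143715219-143715278 on the plus strand (NM_001032998). The HAAO probe lies within chr2:42994630-42994768 on the minus strand (NM_012205), the QPRT probe at chr16:29708670-29708729 on the plus strand (NM_014298) and the NADSYN1 probe within chr11:71208610-71209409 on the plus strand (NM_018161). The KMO, HAAO and NADSYN1 positions span 150, 139 and 800 bases of the genome for 60 bases of probe, so that each of these probes bridges a gap in the genomic sequence. The files do not number the exons.

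Signal was called well above background spot by spot by the scanner software. A probe counted as above background on an array when more than 1 in 2 of its spots passed, and it was tested when this held on every array of at least 1 group. Of the 16 probes, 10 from 6 genes were tested (IDO1, AFMID, KMO, HAAO, QPRT and NADSYN1), among 22751 tested probes in all, and 6 probes from 5 genes were above background on all 13 arrays. The genes without a test were TDO2, KYNU and ACMSD. TDO2 was above background on 1 of 13 arrays, and the ACMSD probe and both KYNU probes on 0 of 13. Values are log2 of the processed signal after quantile normalization over the arrays. They can be compared for 1 probe between arrays but not between probes. The lowest log2 signal of a probe above background was between 2.01 and 4.29 on the different arrays.

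**Figure D1:**
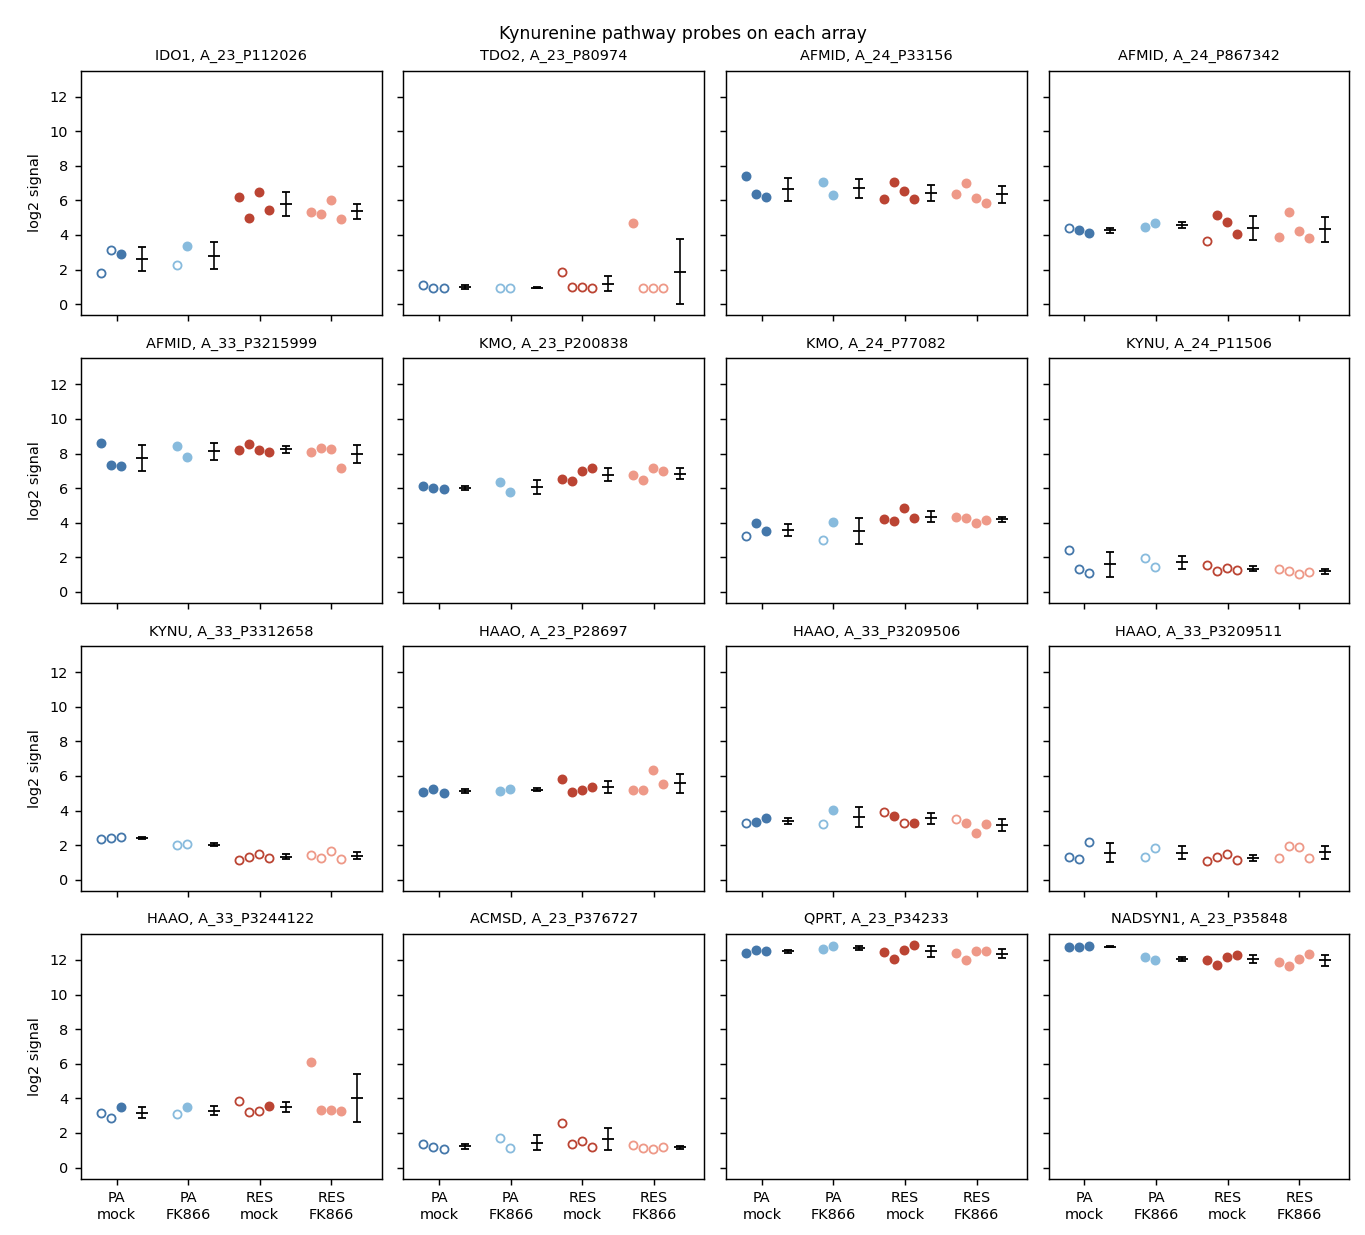
Log2 signal (vertical axis) of each of the 16 probes on the 13 arrays, by group, with replicates side by side. Filled points were well above background and open points were not, and the black bar beside each group is its mean ± SD. IDO1 is the probe with all 8 CEM RES arrays far above the 5 CEM PA arrays, and KYNU, ACMSD and TDO2 are nearly all open points.

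CEM RES carried more IDO1 transcript than CEM PA and, by calls near the threshold, more KMO. NADSYN1 was lower in mock-treated CEM RES, while QPRT, AFMID and HAAO passed no test between the lines. Between mock-treated lines 4 of the 10 tested probes were called at an adjusted p under 0.05 (limma, Benjamini-Hochberg over all tested probes), that is 40%, against 47.6% of all tested probes. The share of the pathway's probes was not above the background. The calls were 3 higher and 1 lower in CEM RES, from 3 genes. Under FK866, 2 of 10 were called, 20% against 36% of all tested probes, and both were higher in CEM RES. IDO1, KMO A_24_P77082 and HAAO A_33_P3244122 were tested only because they were above background throughout a CEM RES group, which favours calls higher in CEM RES. Of the 6 probes above background on all 13 arrays, 1 was called higher and 1 lower in mock-treated CEM RES, against 50.5% of all probes under that filter, and 1 was called, higher, under FK866, against 39.3%. The arrays of the lines were never scanned in the same session (CEM PA in sessions 1 and 2, CEM RES in session 3), so line and session cannot be told apart in any of these comparisons.

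IDO1, one of the enzymes that commit tryptophan to the route, had the largest difference between the lines of the 10 tested probes. Its probe (A_23_P112026, NM_002164, plus strand) lies at positions 39785529 to 39785588 of chromosome 8 in hg19 and was printed on the array in 10 spots. Mock-treated CEM PA gave log2 signals of 1.83, 3.13 and 2.88, and CEM PA with FK866 gave 2.24 and 3.37. Mock-treated CEM RES gave 6.22, 4.99, 6.48 and 5.42, and CEM RES with FK866 gave 5.31, 5.21, 6.0 and 4.95. No CEM RES array overlapped any CEM PA array, a separation whose share over all tested probes was not computed. The mock-treated lines did not overlap for 4 of the 10 tested probes, against 48.8% of all tested probes. Under FK866 the lines did not overlap for 3 of 10, against 57.8%. The probe was above background on 8 of 8 CEM RES arrays, on 1 of 3 mock-treated CEM PA arrays and on 1 of 2 CEM PA arrays with FK866. By single spots, 80 of 80 were above background in CEM RES and 19 of 50 in CEM PA.

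**Figure D2:**
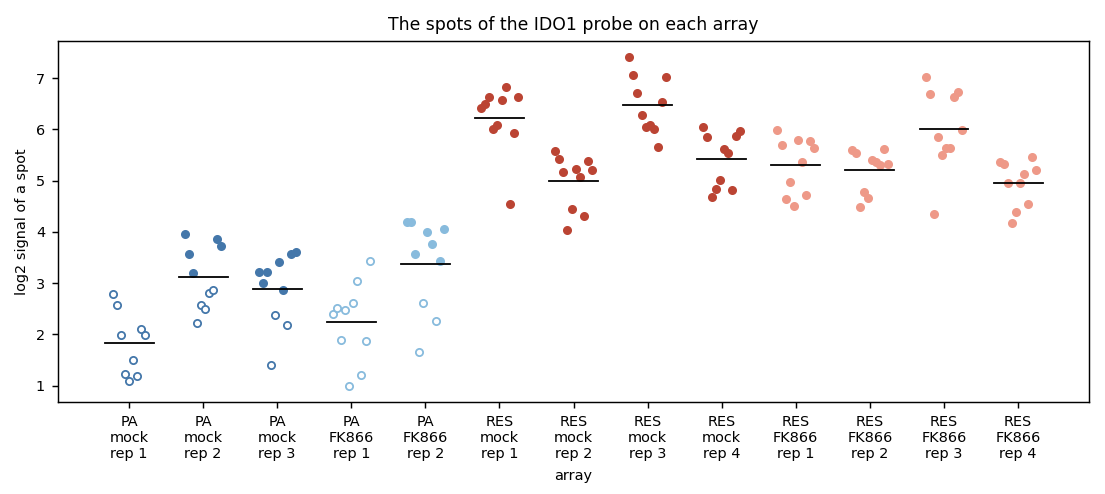
Log2 signal (vertical axis) of the single spots of the IDO1 probe on each of the 13 arrays, with outlier spots left out. Filled spots were well above background, and the black line is the mean of the spots of an array. Every CEM RES spot is filled, and the array means of CEM RES (4.95 to 6.48) lie above those of CEM PA (1.83 to 3.37).

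The spots of 1 array were technical repeats and were averaged before any test. Their SD within an array was between 0.41 and 0.89. The group means were 2.61 ± 0.69 (SD, n = 3) in mock-treated CEM PA, 2.81 ± 0.80 (SD, n = 2) in CEM PA with FK866, 5.78 ± 0.69 (SD, n = 4) in mock-treated CEM RES and 5.37 ± 0.45 (SD, n = 4) in CEM RES with FK866. IDO1 was higher in mock-treated CEM RES by 3.16 on the log2 scale (SE 0.43, adjusted p = 0.000118, limma). With CEM PA values under their array's lowest signal above background raised to that signal, this was 5.07-fold. Under FK866 the difference was 2.56 (SE 0.49, adjusted p = 0.00183, limma), or 3.28-fold on the same basis. These folds are not lower limits, because another background correction gave smaller ones. IDO1 was called in both comparisons under 25 of 25 settings of the analysis. Its size depended on the background correction, since normexp with an offset of 50, which compresses low signals, gave 0.78 (adjusted p = 0.00165, limma) in mock-treated cells and 0.55 (adjusted p = 0.0311, limma) under FK866. The lowest CEM PA values came from the arrays of session 1, and without both of them the differences were 2.73 (adjusted p = 0.00104, limma) and 1.97 (adjusted p = 0.0313, limma).

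TDO2, which catalyses the same first step, gave no comparable signal. Its probe was at 0.91 to 1.10 on the 5 CEM PA arrays, all below background. In CEM RES it was above background on replicate 1 with FK866 alone, at 4.69, while the other 3 arrays of that group were between 0.92 and 0.95 and the mock-treated arrays between 0.94 and 1.84. AFMID, the formamidase of the second step, was read by 3 probes, each for a different transcript. The probe for NM_001010982 ranged from 5.87 to 7.42 over the 13 arrays and was above background on all of them. That for NM_001145526 ranged from 7.19 to 8.61, also above background throughout, and that for the non-coding NR_027083 from 3.64 to 5.35, above background on 11 arrays. The differences between mock-treated lines were -0.21 (95% interval -1.0 to 0.59), 0.51 (-0.24 to 1.26) and 0.13 (-0.73 to 0.98) in that order, and none was called. The NM_001145526 probe had its highest value, 8.61, on CEM PA mock replicate 1. Without that array the difference was 0.93 (adjusted p = 0.0319, limma).

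KMO, the mitochondrial monooxygenase that hydroxylates kynurenine, was read by a pair of probes of the same transcript. The probe A_23_P200838 lies at chr1:241758694-241758753 of hg19, downstream of the one printed above, and was above background on all 13 arrays. It gave 6.13, 6.01 and 5.93 in mock-treated CEM PA and 6.36 and 5.80 with FK866. In CEM RES it gave 6.53, 6.44, 7.01 and 7.17 on the mock arrays and 6.75, 6.47, 7.17 and 6.99 with FK866. All CEM RES values were above all CEM PA values, by a narrow margin between 6.36 and 6.44. The lines were separated for 48.8% of all tested probes in mock-treated cells and for 57.8% under FK866. The share separated over all 13 arrays was not computed. The difference was 0.77 on the log2 scale in mock-treated cells (SE 0.23, adjusted p = 0.0143, limma), which is 1.70-fold. Under FK866 it was again 0.77 (SE 0.26, adjusted p = 0.0347, limma).

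The second KMO probe, A_24_P77082, was dimmer. Mock-treated CEM PA gave 3.24, 3.97 and 3.52, and CEM PA with FK866 gave 2.98 and 4.04. Mock-treated CEM RES gave 4.21, 4.08, 4.83 and 4.28, and CEM RES with FK866 gave 4.34, 4.27, 4.01 and 4.15. Both CEM PA arrays of session 1 were below background and all 8 CEM RES arrays above it. The difference was 0.77 in mock-treated cells (SE 0.26, adjusted p = 0.0290, limma). Under FK866, where the groups overlapped, it was 0.69 (95% interval 0.04 to 1.34, adjusted p = 0.0922, limma). With dim CEM PA values raised as for IDO1, these were 1.34-fold and 1.16-fold, which are not lower limits. The value under FK866 was 0.16 without CEM PA FK866 replicate 1, 0.15 without both arrays of session 1 and 1.22 (adjusted p = 0.0200, limma) without CEM PA FK866 replicate 2. The KMO calls were near the threshold. A_23_P200838 was called under 25 of 26 settings in mock-treated cells and 17 of 26 under FK866. A_24_P77082 was called under 18 of 25 and 2 of 25. With normexp, A_23_P200838 gave 0.36 (adjusted p = 0.112, limma) and A_24_P77082 gave 0.08 (adjusted p = 0.473, limma) in mock-treated cells. In mock-treated cells A_24_P77082 also lost its call without CEM PA mock replicate 1 (adjusted p = 0.125), CEM PA mock replicate 3 (0.0753), CEM RES mock replicate 3 (0.0782) or both arrays of session 1 (0.0682). Under FK866 A_23_P200838 lost its call without CEM PA FK866 replicate 2, where it read 0.48 (adjusted p = 0.303), and without CEM RES FK866 replicate 1 (adjusted p = 0.0508), 3 (0.0785) or 4 (0.0669) or both arrays of session 1 (0.0580).

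KYNU, the kynureninase, lay below background with both probes on every array. The probe printed above was between 1.04 and 2.41, and a second one for ENST00000410015, at chr2:143704873-143704932, was between 1.16 and 2.46. No order between groups can be read from signals of this kind. HAAO, the dioxygenase that makes the semialdehyde, had 4 probes. A_23_P28697 was above background on all 13 arrays, at 5.03 to 5.26 on the 5 CEM PA arrays and 5.06 to 6.33 on the 8 CEM RES arrays, and the lines differed by 0.24 (95% interval -0.33 to 0.81) in mock-treated cells and 0.37 (-0.28 to 1.02) under FK866, neither called. A_33_P3244122, for the same transcript, was above background on all 4 arrays of CEM RES with FK866 but on 1 array of each other group. One of those 4 arrays, replicate 1, stood at 6.09 against 3.30 to 3.33 on the others. The remaining HAAO probes, both for ENST00000402268, were above background on 8 and 0 arrays and were not tested. ACMSD, the branch enzyme that competes with NAD+ formation, lay between 1.05 and 2.55 with no array above background.

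**Figure D3:**
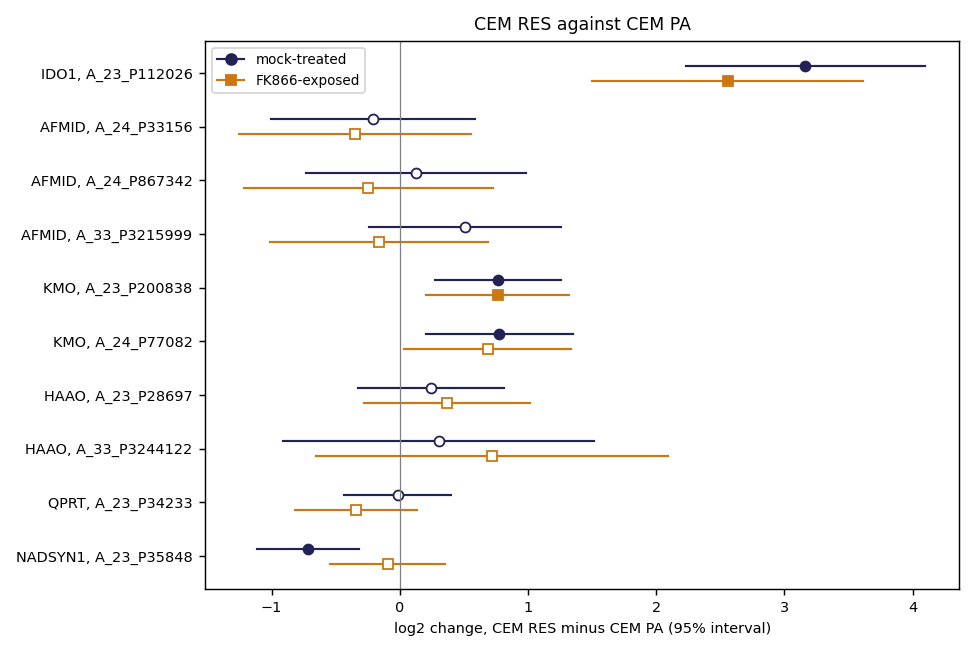
Log2 change of CEM RES minus CEM PA (horizontal axis) with its 95% interval for the 10 tested probes, in mock-treated cells (circles) and under FK866 (squares). Filled symbols were called at an adjusted p under 0.05. IDO1 stands at 3.16 and 2.56, both KMO probes at 0.77 in mock-treated cells, 1 of them dim in CEM PA, and NADSYN1 at -0.72 in mock-treated cells and -0.09 under FK866.

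QPRT, which makes the first nucleotide of the route, was above background on all 13 arrays and was called in no comparison. It gave 12.41, 12.60 and 12.51 in mock-treated CEM PA and 12.63 and 12.78 with FK866. In CEM RES it gave 12.46, 12.04, 12.59 and 12.86 on the mock arrays and 12.40, 12.02, 12.52 and 12.53 with FK866. The mock-treated lines overlapped, and their difference was -0.02 on the log2 scale (95% interval -0.44 to 0.40, adjusted p = 0.951, limma). Under FK866 every CEM RES value was below both CEM PA values, with a difference of -0.34 (95% interval -0.81 to 0.14, adjusted p = 0.249, limma) that was not called. Such separation was found for 57.8% of all tested probes in that comparison.

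NADSYN1, the glutamine-dependent synthetase of the last step, was highest in mock-treated CEM PA. The 3 mock-treated CEM PA arrays gave 12.73, 12.76 and 12.80, and the FK866 arrays of the same line gave 12.14 and 11.99. Mock-treated CEM RES gave 12.01, 11.72, 12.16 and 12.29, and CEM RES with FK866 gave 11.86, 11.63, 12.08 and 12.33. The mock-treated CEM PA arrays lay above all others, and the other 3 groups overlapped each other. Of all tested probes, 48.8% separated the mock-treated lines and 34.8% separated FK866 from mock in CEM PA. Mean log2 signals were 12.76 ± 0.03 (SD, n = 3), 12.07 ± 0.11 (SD, n = 2), 12.05 ± 0.25 (SD, n = 4) and 11.98 ± 0.30 (SD, n = 4) in the order in which the groups are named here. Between mock-treated lines NADSYN1 was lower in CEM RES by -0.72 on the log2 scale (SE 0.18, adjusted p = 0.00665, limma), a 1.64-fold difference that was called under 26 of 26 settings. Under FK866 the lines differed by -0.09 (95% interval -0.54 to 0.36, adjusted p = 0.753, limma).

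The response to 48 h of FK866 was compared with mock treatment within each line. In CEM PA 0 of the 10 tested probes were called by limma, against 1.53% of all tested probes (348), and 1 had an unadjusted p under 0.05. In CEM RES 0 of 10 were called, against 0% of all tested probes, and 0 of the 10 had an unadjusted p under 0.05. The groups did not overlap for 3 of the 10 probes in CEM PA and for 0 of 10 in CEM RES, against 34.8% and 2.91% of all tested probes. The 3 were NADSYN1, QPRT and the AFMID probe for NR_027083.

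The probe with the unadjusted p under 0.05 was NADSYN1. It was lower in CEM PA with FK866 by -0.69 (SE 0.22, adjusted p = 0.151, limma). The change was -0.59 in session 1 and -0.78 in session 2. Each value rests on 1 FK866 array, and in session 2 that array shared no slide with the mock arrays. Replicate numbers were taken to pair the arrays. With the number as a block the change was -0.67 (SE 0.12) and passed the threshold (adjusted p = 0.0355, limma), in a fit that called 5.35% of all tested probes. This was the 1 of 26 settings with a call. In CEM PA replicate 1 was session 1 and the other arrays session 2, so pairing and session cannot be told apart there. In CEM RES the change was -0.07 (95% interval -0.44 to 0.30), at 0.11 on slide 5 and -0.26 on slide 6. The difference between the lines in the response was 0.62 (SE 0.28, adjusted p = 0.390, limma), which was not called. In that comparison 0 of 10 tested probes were called, against 0.413% of all tested probes, and 1 had an unadjusted p under 0.05.

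QPRT changed by 0.20 with FK866 in CEM PA (95% interval -0.30 to 0.70) and by -0.12 in CEM RES (-0.51 to 0.27), neither of them called. IDO1 changed by 0.20 in CEM PA (-0.92 to 1.31) and by -0.41 in CEM RES (-1.27 to 0.45). KMO A_23_P200838 changed by 0.06 in CEM PA (-0.53 to 0.65) and also by 0.06 in CEM RES (-0.40 to 0.51). The intervals of these 3 genes leave room for changes of either sign, and an uncalled change does not show that FK866 left the transcript as it was.

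**Figure D4:**
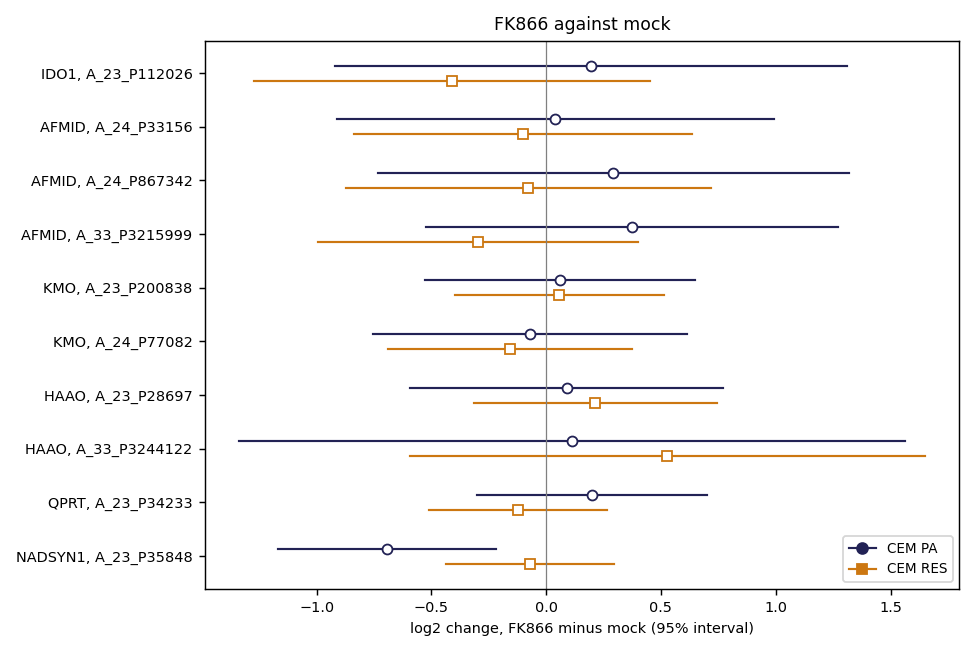
Log2 change of FK866 minus mock (horizontal axis) with its 95% interval for the 10 tested probes, in CEM PA (circles) and CEM RES (squares). Open symbols were not called at an adjusted p under 0.05, which holds for all 20 changes, and the interval of NADSYN1 in CEM PA (-1.17 to -0.22) is the one that does not include 0.

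The other genes that feed, branch from or parallel the route were read from 6 lists, each gene by its brightest tested probe. In reading their counts between the lines, 24.9% of all tested probes were called higher and 22.7% lower in mock-treated CEM RES, and 18% each way under FK866. FK866 against mock gave 0 calls in every list in both lines (limma), and so did the difference between the lines in the response. Between mock-treated lines, the list of tryptophan uptake and charging had 2 genes higher and 1 lower in CEM RES of 6 tested. WARS, the cytosolic tryptophanyl-tRNA synthetase, was higher by 0.83 (adjusted p = 0.0100, limma). SLC16A10, an aromatic amino acid transporter, was lower by -0.79 (adjusted p = 0.00577, limma), whereas another of its probes read 0.52. SLC7A5, the LAT1 transporter that imports tryptophan, was higher in CEM RES by 0.72 in mock-treated cells (adjusted p = 0.0122, limma) and by 0.76 under FK866 (adjusted p = 0.0238, limma), the only call of that list there.

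Among kynurenine side branches, which make kynurenic acid or break down glutaryl-CoA, 3 genes were higher and 2 lower in mock-treated CEM RES of 6 tested, and none of the 5 changed by more than 0.75. Under FK866, 2 of 6 were called, both higher, and AADAT, a kynurenine aminotransferase, was higher by 1.09 (adjusted p = 0.00328, limma). Between mock-treated lines AADAT read 0.02. FK866 changed it by -0.59 in CEM PA and 0.48 in CEM RES, neither called. The difference between these responses was 1.07 (adjusted p = 0.173, limma) and was not called. In the list of other tryptophan routes, 1 of 4 was called between mock-treated lines, and 2 of 4 under FK866, 1 in each direction. ALDH2, the mitochondrial aldehyde dehydrogenase, was lower in CEM RES by -1.32 (adjusted p = 0.000114, limma) and under FK866 by -1.41 (adjusted p = 0.000307, limma). INMT, an indolethylamine methyltransferase, was above background on all 4 CEM RES arrays with FK866 and on 0 of 2 CEM PA arrays. The difference there was 1.83 on the log2 scale (adjusted p = 0.0454, limma), or 2.13-fold with dim CEM PA values raised as for IDO1. In mock-treated cells INMT was above background on 2 of 3 CEM PA and 2 of 4 CEM RES arrays. The mock-treated lines differed by 0.16, which was not called. INMT was tested only through the group in which it was high.

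Of the later and parallel steps of NAD+ synthesis 5 genes were tested. In mock-treated cells 1 was called, NAMPT, the target of FK866, lower in CEM RES by -0.81 (adjusted p = 0.00454, limma) by its brightest probe, while its other probes read 0.01 and -0.20. Under FK866 1 was called, NMNAT1, the nuclear adenylyltransferase that acts between QPRT and NADSYN1, higher in CEM RES by 0.99 (adjusted p = 0.00534, limma), while its other probe read 0.40. Kynurenine can activate the aryl hydrocarbon receptor. Of the 8 genes of its list 5 were tested, and the receptor gene AHR had no probe that passed the filter. In mock-treated CEM RES 3 of the 5 were lower and 0 higher, which does not give the state of the receptor. ARNT, its dimerization partner, was lower by -0.91 (adjusted p = 0.0281, limma) and AHRR, its repressor, by -0.77 (adjusted p = 0.0351, limma). The third was TIPARP, a target of the receptor, at -0.56 by its brightest probe and 0.32 by another. Under FK866 TIPARP was the 1 call of the 5, at -0.81 (adjusted p = 0.00704, limma) and again with the other probe opposed, at 0.90.

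The interferon route is the classical inducer of IDO1. Of 10 tested genes, 6 were lower and 1 higher in mock-treated cells, and 5 lower and 1 higher under FK866, beside the shares of all tested probes given above. The list's median was -0.76 in both comparisons, against 0.04 and 0.06 over all tested probes. The list was chosen with earlier results of these data known. It holds inhibitors beside activators, so its median gives no direction for the route, and a link to IDO1 was not tested. SOCS3 and SOCS1, feedback inhibitors of cytokine receptors, were lower by -1.95 (adjusted p = 8.66e-05, limma) and -1.08 (adjusted p = 0.00388, limma) in mock-treated cells and by -1.49 and -1.09 under FK866. The receptor chain IFNGR1 was lower by -0.65 in mock-treated cells (adjusted p = 0.00304, limma) and by -1.20 under FK866 (adjusted p = 0.000242, limma). IFNGR2 was lower by -1.21 in mock-treated cells (adjusted p = 0.0199, limma), and its -0.34 under FK866 was not called. BIN1, an adaptor protein described as a restraint on IDO1 expression, was lower by -2.18 (adjusted p = 0.000229, limma) and -2.93 (adjusted p = 0.000147, limma). The gene called higher was IRF8, an interferon-responsive transcription factor. It was above background on all 4 CEM RES arrays with FK866 and on 1 of 2 CEM PA arrays there. The difference was 1.41 on the log2 scale (adjusted p = 0.0335, limma), or 1.61-fold with dim CEM PA values raised as for IDO1. IRF8 too was tested only through the group in which it was high. IRF1, a transcription factor of the interferon response, read -0.10 in mock-treated cells and was not called.

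**Figure D5:**
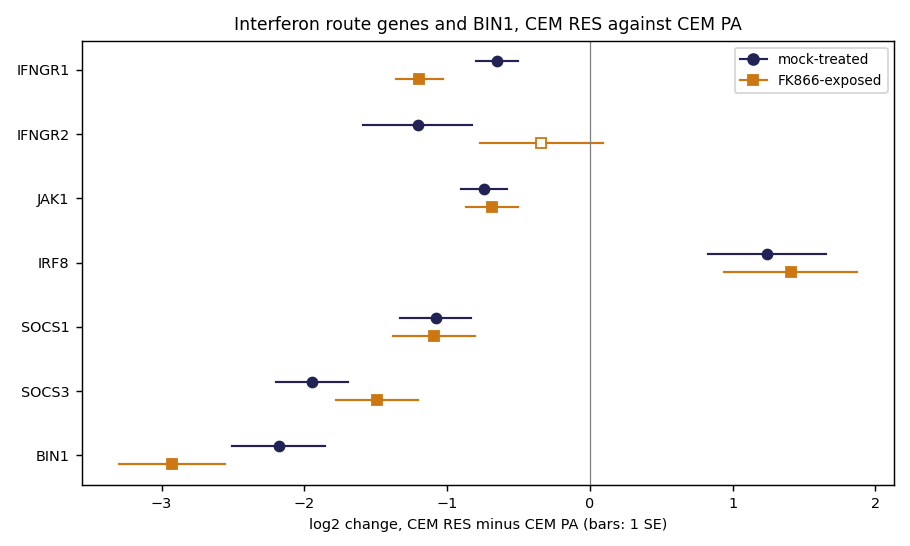
Log2 change of CEM RES minus CEM PA (horizontal axis, bars 1 SE) for the 7 genes of the interferon route list, BIN1 among them, that were called in at least 1 of both comparisons, in mock-treated cells (circles) and under FK866 (squares). Filled symbols were called at an adjusted p under 0.05. IRF8, dim in CEM PA, lies above 0 at 1.24 and 1.41, and BIN1 lies lowest at -2.18 and -2.93.

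Markers of the cell types known for this pathway were read beside these results. Of 15 T lineage genes, 14 were above background on all 13 arrays, and the exception, DNTT, on 0. Myeloid cells are a lineage that expresses IDO1 and KMO. The log2 of the summed signal of the myeloid genes ranged from 9.98 to 10.34 in CEM PA and from 7.86 to 8.45 in CEM RES. Such a sum weights each probe by its own brightness. In CEM PA CD68 carried most of that sum, at a mean log2 signal of 9.94 against 6.96 in CEM RES. CD163 (5.68 against 3.83) and ITGAM (5.45 against 4.92) were also lower in CEM RES. So were the dim CSF1R (4.03 against 3.54) and MPO (2.81 against 1.73). CD14 went the other way, at 5.87 in CEM PA and 6.57 in CEM RES. The part of the myeloid genes in the IDO1 and KMO values was not tested. Of the 8 myeloid genes on the array 3 were above background on all 13 arrays, and S100A8 and S100A9 on 0. Of 7 hepatic genes 2 were above background on all arrays, and TTR, HNF4A and FGB on 0. The log2 of their summed signal was 8.33 to 9.01 in CEM PA and 8.52 to 9.34 in CEM RES. In bulk RNA, fewer cells with a transcript and less transcript per cell cannot be told apart.

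The genes whose pattern over the 13 arrays was most like that of a pathway gene were found as the smallest root mean square difference after each probe's own mean was removed. For NADSYN1 these were VKORC1 (0.121 on the log2 scale), SLC26A6 (0.123) and PDK3 (0.125), against a median of 0.529 over all candidate probes. For QPRT they were ZNF385A (0.122), CAPG (0.143) and DHX8 (0.148), against a median of 0.460. KMO A_23_P200838 had TFR2 (0.0963), EMR1 (0.155) and CREB3L1 (0.161) nearest to it, against a median of 0.565. These likenesses are descriptions over arrays that share line, session and normalization.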

How the data were processed

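RNA was measured on 13 one-colour arrays (Agilent Human GE 4x44K v2). The authors deposited the spot intensity from Agilent Feature Extraction (10.7.7.1 per the labels), background-corrected but without normalization across arrays. A deposited table of quantile-normalized log2 values served as an alternative. Here the intensities were put on the log2 scale, outlier and control spots removed, quantile normalized and averaged per probe. Between 26457 and 33239 of 43118 spots were well above background and 0 were saturated. Replicate arrays had a Pearson correlation across probes of 0.977 to 0.991. Arrays give no counts, so their number limits precision.

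The 4 groups were fitted together with limma 3.58.1 in R 4.3.3, each probe separately. Probe symbols, positions (hg19) and sequences are those of the files, and 9 of 9 symbols are current in RefSeq. Deviations from the group means correlated between equal replicate numbers in every pair (0.460 and 0.353 in CEM PA, 0.199, 0.388, 0.474 and 0.290 in CEM RES). Numbers were therefore taken to pair the mock and FK866 arrays. Unequal numbers were not compared, and in CEM PA equal numbers also shared a scan session, so these values cannot show pairing. All members were reported. Other genes were named when called with a log2 change over 0.75 and above background throughout a compared group, up to 4 per list and direction. IRF1 and, in mock-treated cells, SLC7A5, TIPARP, IRF8, IFNGR1 and INMT fall outside that rule, as does IFNGR2 under FK866. They were picked with their values in view. The single values of 1 gene of the interferon list are not reported here. The members and lists were chosen with earlier results of these data known. Leaving out both arrays of session 1 was chosen after seeing the data. The other alternatives were the scaling, the background correction, the filter on dim probes, outlier spots, the deposited log2 table, the groups fitted, the double threshold of the methods, the brightest probe per gene, slide, session or replicate blocks, array weights, a variance trend and each array left out. The procedure was tested on simulated data. Figures were drawn with matplotlib 3.10.9.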

Additional observations from a re-analysis of the deposited data

Results flagged for a closer look

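In 32 groups of 4 arrays (each probe in each CEM RES group), an array lay far from the other 3 in 3 cases, where chance gives about 1 in 20 groups. The TDO2 probe was at 4.69 on CEM RES FK866 replicate 1, against at most 0.95 on the other arrays of that group, and at 1.84 on CEM RES mock replicate 1, which was below background, against at most 0.98. The HAAO probe A_33_P3244122 was at 6.09 on CEM RES FK866 replicate 1, against at most 3.33 on the others. Without that array the FK866 change of this HAAO probe in CEM RES went from 0.53 to -0.16 on the log2 scale, and neither value was called. Both high values came from the same array, and their cause was not tested.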

How the results depend on the processing

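Of 50 changes (10 probes in 5 comparisons), the 6 that were called kept their sign under every alternative run. Of the 44 others, 28 changed sign under at least 1 alternative and 3 were called under at least 1. The count of called probes between mock-treated lines went from 4 to 2 with normexp background correction and to 2 when a probe had to be above background on all 13 arrays, which drops IDO1 and the dimmer KMO probe. Under FK866 it went from 2 to 1 with normexp, with the filter on all 13 arrays, with only the compared groups fitted, with scan session as a random block and without both arrays of session 1. Leaving out each array in turn gave 3 to 4 and 1 to 2 called probes between the lines, the lower count of 1 without CEM RES FK866 replicate 1, 3 or 4, and 0 to 0 for the FK866 comparisons and for the difference between the lines. With the replicate number as a block, 1 probe (NADSYN1) was called for FK866 in CEM PA, where the block called 5.35% of all tested probes against 1.53% without it, and the pairing changed no other call. Under 75th percentile scaling the median change between the lines over all tested probes went from 0.04 to 0.17 in mock-treated cells and from 0.06 to 0.20 under FK866. IDO1 then read 3.33 and 3.03, and the second KMO probe under FK866 1.30 (adjusted p = 0.0298, limma). Low signal limits IDO1 in CEM PA, the second KMO probe and the HAAO probe A_33_P3244122.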
